A study of Homo sapiens with 6 samples.

Results

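The human reference genome carries, beside its 24 chromosomes, alternate-haplotype contigs, which are second versions of loci where people differ too much for 1 sequence to stand for all. Peaks of open chromatin on these contigs, whose names end in _alt, are described here. Peaks of 6 libraries on contigs with that ending were merged wherever they overlapped by at least 1 bp, which gave 1288 open regions of 69562 in all, on 169 contigs of 23 parent chromosomes. A further 67844 regions lay on the primary chromosomes and 430 on unlocalized or unplaced contigs and the mitochondrial genome.

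Open DNA was mapped by ATAC-seq, a transposase method that cuts and tags accessible sites, in nuclei of Jurkat, an established human T-cell leukaemia line. The 3 normal gravity libraries (NG 1 to NG 3) and the 3 simulated microgravity libraries (SMG 1 to SMG 3) were each made from 50000 cells, with 3 min of lysis and 30 min of transposition at 37 °C. In the SMG group the isolated nuclei, not living cells, were turned in a random positioning machine at 30 degrees per second for 30 min. The labels do not state whether replicate libraries were grown separately, so the p-values cover the spread from library to library, possibly a technical one.

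Alternate contigs cover loci such as the major histocompatibility complex (MHC) on chromosome 6, whose genes present peptides to T cells, and the leukocyte receptor complex on chromosome 19, whose genes encode receptors of immune cells. Most of a contig resembles the matching stretch of its parent chromosome, so a read from such a stretch can fit both copies, and an aligner has to choose between them or share the read. The sources used here do not give how such reads were handled.

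The deposited lists held 37782 to 43713 peaks per library and no read counts. All 9 of 9 T-cell marker genes, among them CD3E, CD2 and LCK, had a peak within 1 kb of a gene end in every library. Summed over the list, the score percentiles of these peaks ran from 632 to 694 in NG and from 673 to 699 in SMG. None of the 5 B-cell, 5 myeloid, 4 natural killer cell and 3 erythroid markers had such a peak in any library. Of 3 fibroblast markers, COL1A1, a collagen gene, had one in all 6 libraries and PDGFRB in none, and the list summed to 40.4 to 72.4 in NG and 63.5 to 82.4 in SMG. The part of such cells in the results was not tested. Only the peak names in SMG 3 include "normalized". SMG 3 also held the most alternate peaks and ranked them lowest, as given below, so values without it are given beside the group comparison.

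Sequences are shown for 4 gene starts that the results turn on, since each overlaps a primary region whose alternate partner differed from it in rank, width or libraries. They are RefSeq sequence of the primary chromosomes (GRCh38.p14), 250 bases before to 50 after a gene start, read 5′ to 3′ on the gene's strand, and the contigs' own sequence was not used here. Capitals mark each CG dinucleotide, the site of DNA methylation, which is dense at many gene starts that stay open. CNOT3 (chr19:54137512-54137811, plus strand) encodes a subunit of the complex that removes poly(A) tails. TSEN34 (chr19:54190094-54190393, plus strand) encodes a subunit of the enzyme that splices transfer RNA. BTBD7 (chr14:93332987-93333286, minus strand) encodes a BTB domain protein. RXRB (chr6:33200616-33200915, minus strand) encodes a retinoid X receptor.
CNOT3: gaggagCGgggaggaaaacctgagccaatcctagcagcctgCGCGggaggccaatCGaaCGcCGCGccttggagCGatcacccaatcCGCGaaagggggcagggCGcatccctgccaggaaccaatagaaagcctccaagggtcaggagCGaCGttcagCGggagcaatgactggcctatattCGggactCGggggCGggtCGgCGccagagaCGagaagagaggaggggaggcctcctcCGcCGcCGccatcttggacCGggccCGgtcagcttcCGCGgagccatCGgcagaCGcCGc
TSEN34: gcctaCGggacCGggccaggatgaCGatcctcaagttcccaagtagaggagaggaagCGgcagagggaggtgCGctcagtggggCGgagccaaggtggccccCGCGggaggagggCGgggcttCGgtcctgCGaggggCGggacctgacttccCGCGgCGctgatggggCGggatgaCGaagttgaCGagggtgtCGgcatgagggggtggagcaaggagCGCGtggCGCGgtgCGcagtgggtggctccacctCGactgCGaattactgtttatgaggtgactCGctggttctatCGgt
BTBD7: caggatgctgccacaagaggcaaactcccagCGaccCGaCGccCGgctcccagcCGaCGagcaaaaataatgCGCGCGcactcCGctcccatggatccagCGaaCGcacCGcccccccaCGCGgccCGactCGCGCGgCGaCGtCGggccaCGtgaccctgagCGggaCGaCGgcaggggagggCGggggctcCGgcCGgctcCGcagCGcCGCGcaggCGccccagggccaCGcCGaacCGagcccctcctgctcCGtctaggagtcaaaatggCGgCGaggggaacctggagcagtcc
RXRB: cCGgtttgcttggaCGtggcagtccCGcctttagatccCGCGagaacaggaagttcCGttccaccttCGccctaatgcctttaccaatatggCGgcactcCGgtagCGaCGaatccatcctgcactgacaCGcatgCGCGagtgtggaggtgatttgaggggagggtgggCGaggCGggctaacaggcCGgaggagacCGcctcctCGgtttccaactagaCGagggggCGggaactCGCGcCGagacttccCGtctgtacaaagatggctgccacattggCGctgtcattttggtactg
The motif searched was CG, which reads the same on both strands. These 4 windows held 30, 28, 40 and 26 CG, in the order shown, against a median of 14 over 35116 RefSeq promoter windows of the same length. The share of all windows with at least as many was 22.4% for CNOT3, 26.2% for TSEN34, 7.61% for BTBD7 and 30.1% for RXRB.

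Of the 1288 alternate regions, 428 (33.2%) had a peak in all 6 libraries, against 34.6% of all merged regions. A further 370 (28.7%) had a peak in 1 library only, against 34.9% of all merged regions. Between these ends, 143 regions had a peak in 2 libraries, 136 in 3, 87 in 4 and 124 in 5. Strength was read as the score percentile, the rank of a peak's −log10 q-value among all peaks of its library. Regions in 1 library had a median percentile of 16.5 and a median width of 238 bp. Those in all 6 had a median of 57.6 and a width of 782 bp. Median strength and median width were higher with each added library. A merged region spans all of its peaks, so part of the rise in width follows from the merging itself.

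Chromosome 6 was the parent of 338 regions, 26.2% of the total, on 13 contigs. Chromosome 17 followed with 125, chromosome 15 with 105, chromosome 14 with 72, and chromosomes 8 and 19 with 68 each. Among the 20 parent chromosomes with at least 10 regions, the share of regions in all 6 libraries ran from 20.6% (chromosome 3) to 58.3% (chromosome 21), and it was 23.96% on chromosome 6. Numbers per contig were uneven, with 38 contigs holding 1 region and 32 holding 10 or more. The contig with the most, chr15_KI270905v1_alt, held 58.

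**Figure D1:**
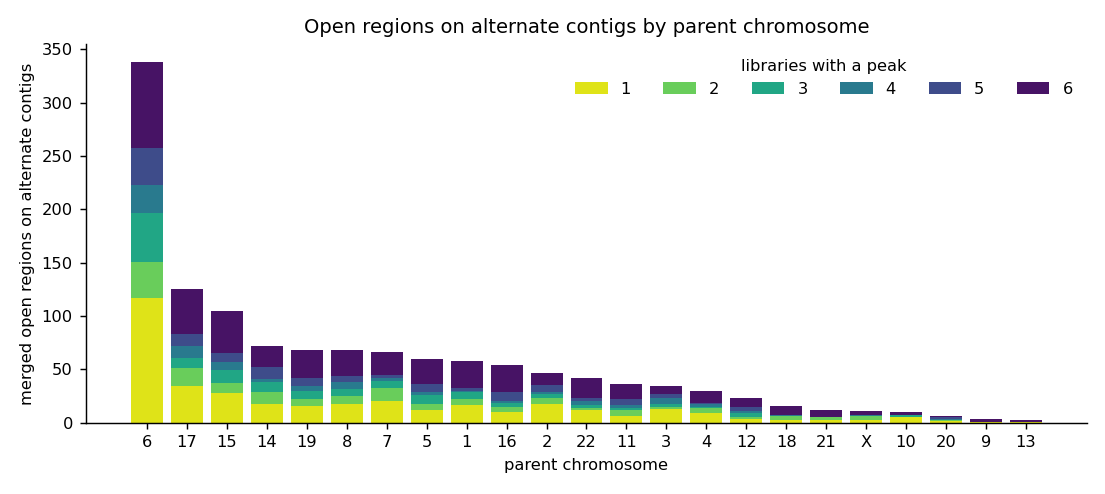
Number of merged open regions on alternate contigs (vertical axis) by parent chromosome (horizontal axis, ordered by number), with colours for the number of libraries that have a peak in the region. Chromosome 6 has 338 regions, of which 117 are in 1 library and 81 in all 6.

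Over the libraries that held them, 13 of the 1288 alternate regions (1.01%) had a mean percentile above 90, against 5.38% of primary regions and 5.33% of all merged regions. The region at chr8_KI270821v1_alt 405009-405855 (hg38 contig coordinates, as are all below) was the strongest, at percentiles of 99.5, 99.6 and 99.3 in NG 1 to NG 3 and 99.4, 99.5 and 98.8 in SMG 1 to SMG 3. It was followed by chr21_KI270872v1_alt 45524-46432, at 99.1, 99.2 and 98.5 in NG and 98.8, 99.1 and 97.9 in SMG. Both stood at the same high level in every library, with the groups overlapping. The third, chr7_KI270803v1_alt 831462-832529, had 97.2, 98.1 and 98.8 in NG and 99.1, 98.9 and 97.6 in SMG. The other 7 of the 10 strongest regions in all 6 libraries had mean percentiles of 91.5 to 97.5 and lay on contigs of chromosomes 4, 5, 6 and 7. Over the 20 chromosomes with at least 10 regions, the strongest region had a mean percentile between 70.1 (chr10_KI270825v1_alt 37817-38502) and 99.3, and in 19 of them it was in all 6 libraries. The exception was chr12_GL877875v1_alt 1-503, with peaks in 5 libraries and none in NG 3.

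Within each library, alternate peaks were set against the primary peaks of the same library. Only 2.15 to 2.63% of alternate peaks were in the top 10% by score, against 10.0 to 10.1% of primary peaks. The mean difference was -7.74 percentage points (SD 0.238, n = 6 libraries), below 0 in 6 of 6 (exact two-sided sign-flip permutation test, p = 0.03125, the smallest that 6 libraries allow; Benjamini-Hochberg adjusted p = 0.0402 over 9 such tests). The median score percentile of alternate peaks was 42.7, 48.0 and 44.8 in NG 1 to NG 3 and 46.0, 44.1 and 39.2 in SMG 1 to SMG 3, with primary medians of 49.9 to 50.3. The difference was -5.95 ± 3.07 (SD, n = 6; exact permutation p = 0.03125, adjusted 0.0402). Against peaks on unlocalized or unplaced contigs and the mitochondrial genome, alternate peaks also ranked lower, by -8.84 ± 5.73 (SD, n = 6, exact permutation p = 0.03125, adjusted 0.0402). Their median width was 403 to 469 bp against 424 to 488 bp on primary chromosomes, a difference of -32.5 ± 15.04 bp (SD, n = 6; exact permutation p = 0.03125, adjusted 0.0402). The rank, the width and the top 10% share each differed in the same direction in all 6 libraries.

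The share of peaks in regions held by all 6 libraries was lower for alternate peaks in 5 of 6 libraries, by -4.29 ± 5.54 percentage points (SD, n = 6; exact permutation p = 0.09375, adjusted 0.105). At a −log10 q-value of at least 5 this difference was -14.2 points (exact permutation p = 0.03125 for n = 6). With equal peak numbers it was -7.39 points (exact permutation p = 0.0625 for n = 6). Without chromosome 6 contigs it was only -1.25 points (exact permutation p = 0.46875 for n = 6). With each library left out it ran from -4.93 points to -2.32 points, the last without SMG 3.

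Fold enrichment, the height of a summit over its local background, showed another pattern. The median fold percentile of alternate peaks was higher than that of primary peaks in 5 of 6 libraries, by 2.54 ± 3.09 (SD, n = 6; exact permutation p = 0.125, adjusted 0.125), and lower in SMG 3. At a −log10 q-value of at least 5 it was -0.107. By the peak caller's formulas, a whole-number fragment pileup at the summit and a local background were recovered from the deposited fold and −log10 p-value. Median summit pileup was 12 to 17 fragments for alternate peaks and 15 to 21 for primary peaks, a difference of -4.33 ± 1.03 (SD, n = 6; exact permutation p = 0.03125, adjusted 0.0402). Median background was 1.17 to 1.77 against 1.89 to 2.86, a difference of -1.03 ± 0.180 (SD, n = 6; exact permutation p = 0.03125, adjusted 0.0402). Between 51.1 and 54.4% of alternate peaks stood at the lowest background of their library, within 1%, against 13.1 to 17.7% of primary peaks. This difference, 37.9 ± 0.904 percentage points, was above 0 in 6 of 6 libraries (SD, n = 6; exact permutation p = 0.03125, adjusted 0.0402). Alternate peaks thus had both a lower summit and a lower surrounding signal than primary peaks, in every library. The part of reads that fit both copies was not tested.

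**Figure D2:**
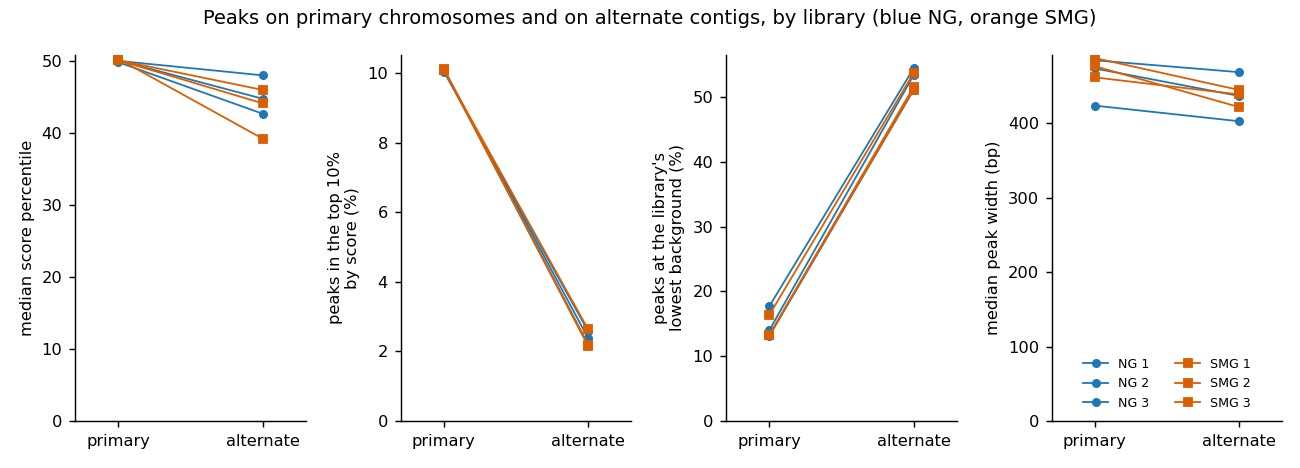
Each line joins the value of primary peaks to that of alternate peaks in 1 library (blue NG, orange SMG); panels show the median score percentile, the percent of peaks in the top 10% by score, the percent at the library's lowest background and the median width in bp. All 6 lines rise in the panel of lowest background and fall in the other panels; in that panel alternate peaks reach 51.1 to 54.4%.

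The gravity comparison asked whether open chromatin on these contigs differed between NG and SMG. With 3 libraries against 3, the smallest p of the exact two-sided permutation test is 0.1, so no such difference could pass 0.05. Alternate peaks numbered 621, 843 and 775 in NG and 799, 784 and 884 in SMG, which overlap. Their means were 746 ± 114 and 822 ± 53.9 (SD, n = 3 each; exact permutation p = 0.4). The difference of 76.0 peaks became 13.3 without NG 1 and 124 without NG 2. As a share of all peaks they made up 1.64, 1.93 and 1.91% in NG and 1.89, 1.85 and 2.23% in SMG (exact permutation p = 0.6 for n = 3 each). NG 1, the library with the fewest peaks in all, was lowest and SMG 3 highest on both measures. The covered length was 355 ± 74.6 kb in NG and 395 ± 23.7 kb in SMG (SD, n = 3 each; exact permutation p = 0.4), and without NG 1 the sign of its difference turned, to -0.813 kb. Median percentiles averaged 45.2 ± 2.69 and 43.1 ± 3.50 (SD, n = 3 each; exact permutation p = 0.5). Median widths averaged 436 ± 33.0 and 435 ± 11.9 bp (SD, n = 3 each; exact permutation p = 1.0). Without SMG 3 the SMG minus NG differences were 45.2 peaks, 0.0438 percentage points of all peaks, 26.3 kb, -0.0948 percentile points and 5.67 bp, with exact permutation p of 0.7 to 1.0.

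By parent chromosome, no count separated the groups. Chromosome 6 contigs had 118, 204 and 177 peaks in NG and 187, 175 and 251 in SMG (exact permutation p = 0.5 for n = 3 each). Chromosome 17 contigs had 67, 76 and 77 in NG and 78, 77 and 88 in SMG (exact permutation p = 0.2 for n = 3 each). The SMG mean was the higher in 15 of the 20 chromosomes tested and the NG mean in 5. None of the 20 had every library of 1 group above every library of the other, and every adjusted p was 1.0 (exact permutation tests with Benjamini-Hochberg adjustment), with 0 at an unadjusted p under 0.05. Libraries of the same group were no more alike than libraries of different groups. The mean Jaccard index, the bases of alternate contigs open in both libraries over those open in either, was 0.519 within groups and 0.522 between them (exact one-sided permutation p = 0.7 over 10 splits, 15 pairs).

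A peak in all 3 SMG libraries and no NG library was found in 13 alternate regions (1.01%), against 0.411% of all merged regions and 0.399% of primary regions. The reverse, a peak in all 3 NG and no SMG library, was found in 0, against 0.26% of all merged regions. No test is given for these counts. With a library left out the rule asks for less, so these counts cannot be set against the full ones, and each is given with its share of all merged regions. Without NG 1, 14 alternate regions (1.11%) were SMG-only, against 0.649% of all merged regions, and 13 (1.03%) were NG-only, against 1.28%. Without NG 2 the counts were 31 (2.51%, against 1.25%) and 5 (0.406%, against 0.665%). Without NG 3 they were 21 (1.69%, against 0.906%) and 4 (0.323%, against 0.829%). Without SMG 1 they were 28 (2.27%, against 1.12%) and 1 (0.0809%, against 0.558%). Without SMG 2 they were 27 (2.16%, against 1.12%) and 3 (0.24%, against 0.729%). Without SMG 3 they were 26 (2.21%, against 1.29%) and 5 (0.424%, against 0.479%). At a −log10 q-value of at least 5 there were 5 SMG-only regions and 1 NG-only region. The share of all merged regions at that threshold is not given here, so nothing is read from these counts.

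The 13 regions were weak. Their median percentile was 23.3 (range 10.3 to 36.8), near the 25.3 of the 136 alternate regions held by exactly 3 libraries. The strongest, chr14_KI270846v1_alt 969329-969576, stood at percentiles of 25.1, 47.7 and 37.6 in SMG 1 to SMG 3. The next, chr6_GL000255v2_alt 206290-207070, stood at 33.1, 43.0 and 32.8. A second region of the same chromosome 14 contig, 1336526-1337069, followed at 29.6, 40.2 and 16.7. None of these 3 reached the median of its library. Regions on contigs of chromosomes 16 (chr16_KI270853v1_alt 1821542-1821978) and 11 (chr11_KI270832v1_alt 158349-158783) both had mean percentiles of 27.4 to 27.5. MHC contigs held 3 more, chr6_GL000252v2_alt 4532709-4533133 at a mean of 24.5, chr6_GL000253v2_alt 4619780-4620362 at 21.6 and chr6_GL000250v2_alt 4149246-4149766 at 17.04. The others lay on contigs of chromosomes 1, 12 and 15, at means of 10.3 to 23.3. The weakest of them, chr12_GL877875v1_alt 30745-31168, is named outside the rule for named regions, since its values were seen first.

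**Figure D3:**
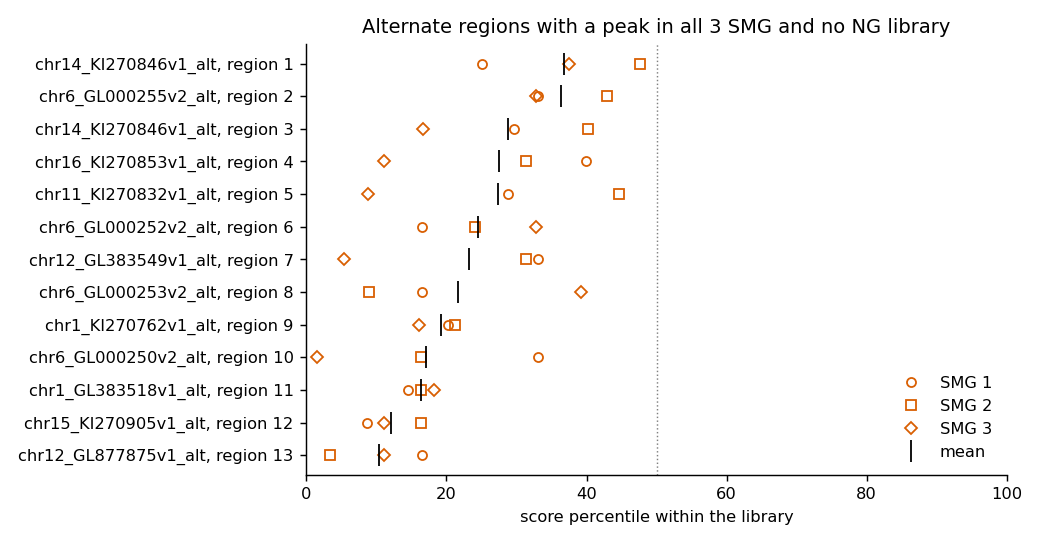
Score percentile within the library (horizontal axis, dotted line at the median of a library) for each SMG-only alternate region (rows), with 1 symbol per SMG library and a bar for their mean. All 39 values lie below 50, and the means run from 10.3 to 36.8.

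To set alternate regions beside their primary copies, 10 contigs were placed on the parent chromosome by the spacing of peak summits alone. A contig was placed where at least 7 of its summits fell within 100 bp of primary summits under 1 shift, and at least 1.5 times as many as under the best shift over 400 kb away. Of 82 contigs with at least 4 regions, 10 met this, and their 261 regions gave 110 pairs. The cutoffs were set after counts of matches had been seen, and no chance rate was computed, so the pairs are a description. With 20 bp instead of 100 bp, 4 contigs were placed, all 4 as before. With 250 bp and regions in at least 2 libraries, 9 of 66 were placed, 6 of them as before.

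Partners resembled each other in strength, which the placement did not use. The part of reads that fit both copies in this likeness was not tested. Mean percentiles of the 110 pairs had Pearson's r = 0.850 and Spearman's rho = 0.819, given with no p, since the pairs share libraries and lie on 10 contigs. The median absolute difference was 4.29 percentile points. Widths had r = 0.789. Both copies had a peak in all 6 libraries in 41 pairs, and the number of libraries was equal in 63 pairs, larger for the alternate copy in 27 and larger for the primary copy in 20. In the 41 pairs with both copies in all 6, the alternate copy's mean percentile differed by -27.1 to 10.0, with a median of -0.51.

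**Figure D4:**
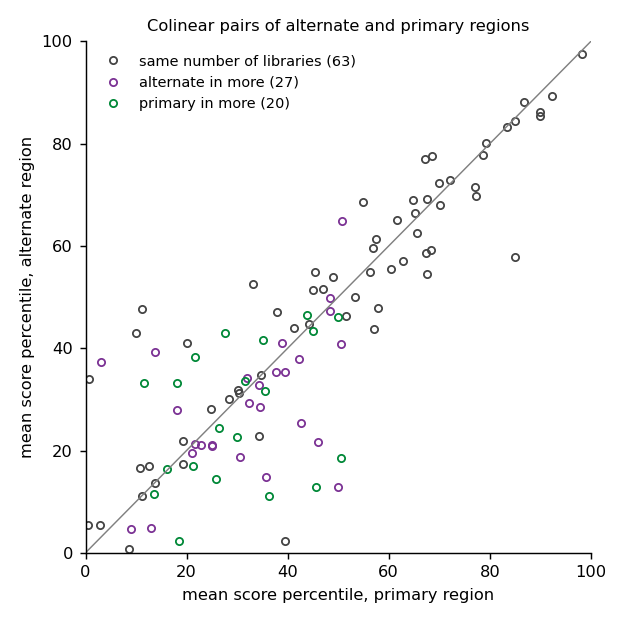
Mean score percentile of the primary region (horizontal axis) and of its alternate partner (vertical axis) for 110 colinear pairs, coloured by which copy had a peak in more libraries; the line marks equal values. Most points lie near the line, with a median absolute difference of 4.29.

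On chr6_KI270801v1_alt, 5 of 10 pairs lay inside THEMIS, which encodes a protein needed for T-cell development, and a sixth lay at its gene end. The strongest of them, chr6_KI270801v1_alt 245766-246874, had a mean percentile of 85.3 and its primary partner (chr6:127900708-127901552) 89.8, both in all 6 libraries. Another pair inside THEMIS, 224839-225477 on the contig and chr6:127879645-127880366, had 71.45 and 77.03. The highest pair of all lay on the same contig, at 317039-317834, with 95.7, 97.5 and 98.6 in NG and 97.9, 97.3 and 98.2 in SMG. Its partner at chr6:127971799-127972601, inside PTPRK, a receptor tyrosine phosphatase gene, had a mean of 98.2 against 97.5. The other 4 pairs at THEMIS were weaker or in fewer libraries. The widest gap of the 6 was at 225701-225962, with 68.6 against 54.9 on chr6:127880505-127880752, each in 1 library.

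Either end of a protein-coding gene, its start or its finish, lay within 1 kb of the primary region in 33 of the 110 pairs, on 9 contigs. Promoters lie at gene starts only, so the 33 are not all promoters. KLF13, for example, was met at both ends, at chr15:31325767-31326803 and chr15:31434682-31435748. At the divergent gene pair CEP170, a centrosome gene, and SDCCAG8, a gene of cilia, the alternate region (chr1_KI270763v1_alt 267046-268555) had percentiles of 76.3, 92.1 and 92.1 in NG and 91.6, 87.6 and 95.8 in SMG. The primary region (chr1:243254907-243256426) had 90.5, 95.4 and 93.4 in NG and 89.1, 91.0 and 94.3 in SMG. The primary copy was the higher in 4 libraries and the alternate copy in SMG 1 and SMG 3. At KLF13, a zinc finger transcription factor gene, the mean percentiles were 80.1 on chr15_KI270905v1_alt 3612026-3612627 and 79.3 on chr15:31325767-31326803. At MIF, which encodes a cytokine, they were 72.3 on chr22_KI270879v1_alt 130121-131026 and 70.0 on chr22:23893871-23894904. At PSMB3, a proteasome subunit gene, they were 67.9 on chr17_KI270857v1_alt 2787473-2788397 and 70.2 on chr17:38752209-38753103. At GON7 and UBR7, of which UBR7 encodes a ubiquitin ligase, they were 72.9 on chr14_KI270847v1_alt 321291-322251 and 72.1 on chr14:93206768-93207732. All of the regions given here with percentiles were in all 6 libraries. The other KLF13 region, chr15:31434682-31435748, had peaks in 5 libraries, and its partner, chr15_KI270905v1_alt 3720658-3721152, in 3.

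The largest gap among pairs in all 6 libraries was at NAP1L4, a histone chaperone gene. The alternate region, chr11_KI270831v1_alt 223247-223710, had 54.7, 71.3 and 65.9 in NG and 57.0, 69.5 and 28.5 in SMG. Its primary partner, chr11:2992197-2993055, had 77.6, 84.9 and 88.7 in NG and 89.95, 86.3 and 82.2 in SMG, above the alternate copy in all 6 libraries. At SMARCB1, which encodes a subunit of the SWI/SNF remodelling complex, the mean was 47.9 on chr22_KI270879v1_alt 22541-23427 and 57.9 on chr22:23786152-23787061.

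The 19 pairs of chr14_KI270846v1_alt fell within chr14:105537516-106868904, the immunoglobulin heavy chain locus, which B cells rearrange to make antibodies. Its strongest pair, 449009-450139 on the contig and chr14:105981257-105982261, had mean percentiles of 83.2 and 83.5, both in all 6 libraries. The number of libraries was equal in 7 of these pairs, larger for the alternate copy in 6 and larger for the primary copy in 6. Only 4 of the 110 pairs differed by 4 or more libraries, and 2 of these were here. At 840860-841466 the contig had peaks in 2 libraries (mean percentile 18.6) and the primary copy, chr14:106373016-106374204, in 6 (50.6). At 479448-479801 the contig had peaks in 5 libraries and the primary copy, chr14:106011748-106012070, in 1.

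Among the placed contigs, 37 of 87 regions in all 6 libraries had no partner within 100 bp. The nearest primary summit lay less than 1 kb away in 12 of these and farther in 25. Only 1 shift was used per contig, so a difference in length between copies could hide a partner. A region without a partner may therefore still have a primary copy. For chr6_KI270801v1_alt 842684-843612, at 82.2, the nearest primary summit lay 4.26 kb away, in 6 libraries at 82.1. The strongest of the 37 was chr22_KI270879v1_alt 266509-267742, at 84.8, 92.8 and 89.4 in NG and 94.7, 91.0 and 95.4 in SMG. The nearest primary summit under the same shift was 2.06 kb away, in a region held by 1 library at a percentile of 16.5. This contig carries GSTT1, a glutathione transferase gene that many people lack and that GRCh38 does not place on primary chromosome 22. RefSeq lists GSTT1 under chromosome 22 at 270308-278486 without naming the contig. If these are positions on this contig, the region ends 2.57 kb before the gene, outside the 1 kb window for gene ends, and GSTT1 was named after the values were seen. Next came chr17_KI270857v1_alt 2331784-2332566, at a mean of 88.2, whose nearest primary summit lay 0.138 kb away in 3 libraries at 32.4.

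A group-only call could be set beside its partner copy in 4 cases, 3 on the primary chromosome and 1 on a contig. In all 4, the partner had a peak in at least 1 library of the group in which the call had none. At BTBD7 and UNC79, which start within the same region, the primary copy (chr14:93332940-93333511) had peaks in SMG 1 to SMG 3 only, at percentiles of 39.99, 51.8 and 11.1. The alternate copy, chr14_KI270847v1_alt 447444-448432, had peaks in NG 1 to NG 3 at 33.8, 31.4 and 39.0 and in SMG 1 and SMG 3 at 16.5 and 43.7. A window in the heavy chain locus, chr14:106129336-106129886, was SMG-only on the primary copy, while the contig (597064-597604) had peaks in 2 NG libraries and 1 SMG library. A window at chr8:143549342-143549681 was NG-only on the primary copy, while chr8_KI270816v1_alt 39439-39839 had peaks in 1 NG library and 2 SMG libraries. The SMG-only MHC region chr6_GL000253v2_alt 4619780-4620362 matched the start of RXRB and of SLC39A7, a zinc transporter gene, at chr6:33200325-33200879. That primary copy had peaks in NG 2 at 24.2, SMG 1 at 16.5 and SMG 2 at 9.005, and a second contig, chr6_GL000254v2_alt 4636461-4636817, had a peak in NG 2 only, at 16.4. Each of these positions thus had a peak in both groups once its copies were read together. A partner was counted only where it had a peak, so reading copies together can only add libraries. No rate for other pairs was computed, and the MHC contigs did not meet the placement rule. The 4 cases are therefore a description and do not decide the group-only calls.

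The MHC is covered by 7 contigs, which held 299 of the 338 chromosome 6 regions, between 20 and 57 each. Of the 299, 67 (22.4%) were in all 6 libraries, against 46 of 111 (41.4%) on primary chromosome 6 between 28 and 34 Mb and 1278 of 4514 (28.3%) on the rest of that chromosome. Their median percentile was 32.8, against 37.1 for the primary window and 24.9 for the rest of the chromosome. None of the 7 met the placement rule. For 6 of them the best shift lay between 28 and 29 Mb, where these contigs are known to belong, with 5 to 8 matched summits each. The next best shift matched 5 to 7, and for chr6_GL000250v2_alt it matched 5, as many as the best. Those shifts were used because the locus was known, and gave 41 pairs, of which 34 lay at a gene end and 8 had both copies in all 6 libraries. The primary copy was in more libraries in 17 pairs, the alternate copy in 6, and 18 had the same number.

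Of 47 class III and flanking genes listed, 46 were found in the gene table, 23 had a primary gene-end region and 17 had a contig partner. KIFC1, a kinesin gene, had 67.2 on chr6_GL000254v2_alt 4826996-4827813 and 73.4 on chr6:33391069-33392122, both in all 6 libraries. GPSM3, a regulator of G protein signalling, and NOTCH4, a Notch receptor gene, shared a region at 61.7 on chr6_GL000250v2_alt 3528040-3528744 and 61.7 on chr6:32195412-32196152. At NEU1, a sialidase gene, and SLC44A4, a choline transporter gene, the primary region chr6:31862521-31863139 had partners on 3 contigs. It was in 6 libraries at a mean of 44.2, and the partners were each in 5 libraries, at 42.8, 23.5 and 44.1. At DXO, an RNA decapping gene, the primary region chr6:31971929-31972635 was in 6 libraries at 41.1, and 2 contig partners were in 6 libraries at 40.1 and 45.5. At LSM2, an RNA processing gene, the primary region chr6:31806716-31807062 was in 2 libraries at 9.06 and 3 partners were in 1 to 4 libraries at 2.82 to 5.94. By mean percentile, copies at DXO lay on both sides of the primary value and copies at LSM2 all below it. At NEU1, 1 copy ranked below the other copies. A mean covers only the libraries with a peak, and at LSM2 these differed between copies. On chr6_GL000252v2_alt the LSM2 copy had 8.63 in SMG 1 and 11.1 in SMG 3, against 16.5 and 1.58 for the primary region. PRRC2A had 53.9 on chr6_GL000255v2_alt 2875731-2876693 and 76.4 on chr6:31619910-31621064. MDC1, a DNA damage response gene, had 34.5 on chr6_GL000251v2_alt 2197062-2197483 in 5 libraries and 78.6 on chr6:30716945-30717775 in 6. HSPA1B, a heat shock protein gene, had 42.4 on chr6_GL000250v2_alt 3159820-3160368 and 20.8 on chr6:31827222-31827674, but its near-identical neighbour HSPA1A makes the placement of reads there uncertain.

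Among antigen processing genes, 4 of 5 (TAP1, TAP2, TAPBP and PSMB9) had a contig partner, and none of the 5 had a primary gene-end region in all 6 libraries. TAP1, a peptide transporter subunit, and PSMB9, an immunoproteasome subunit, shared chr6_GL000253v2_alt 4273025-4273629, with peaks in NG 2 at 31.4 and SMG 3 at 67.2. The primary copy, chr6:32853793-32854215, had peaks in the same 2 libraries, at 16.4 and 25.9. None of 11 class II genes, which antigen-presenting cells use, had a primary gene-end region. Of 10 genes at the 17q21.31 inversion, 3 had a primary gene-end region and none had a contig partner, since no contig there was placed.

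The 9 contigs of the leukocyte receptor complex share 1 coordinate frame, so they can be compared position by position. They held 55 regions, of which 37 fell at 4 positions seen on all 9 contigs. These 4 positions matched the spacing of 4 primary summits from chr19:54136899 on, within 100 bp, where the next best shift matched 3. With 300 bp, a reversed shift near 27.1 Mb matched as many, so the placement rests on the tighter limit and on the known locus. Of 21 genes listed for the complex, 7 had a primary gene-end region and CNOT3, MBOAT7 and TSEN34 had a contig partner. No receptor gene of the list, neither KIR nor LILR, had a primary gene-end region. The contigs also held 18 regions outside the 4 positions, which were not assigned to genes. The strongest of these, chr19_GL949746v1_alt 370113-371064, was in all 6 libraries at a mean of 63.6.

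At CNOT3 the primary region, chr19:54136899-54137870, had percentiles of 96.9, 96.3 and 95.6 in NG and 96.2, 94.8 and 97.0 in SMG. The 9 contigs had mean percentiles of only 36.0 to 54.2 at that position, 8 of them in all 6 libraries and 1 in 5. The primary copy thus ranked above every contig copy, and the CNOT3 start printed above lies inside the primary region. At LENG1 and TMC4 the copies were close, with 36.5 for the primary region chr19:54159472-54160162 and 30.4 to 44.3 on the contigs, in 4 to 6 libraries.

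At MBOAT7, a phospholipid remodelling gene, and TSEN34 the order turned. The primary region, chr19:54190187-54190608, had a peak in NG 2 only, at 38.0, and was 422 bp wide. The contigs had a median of 59.7, 7 of them in all 6 libraries and 2 in 4. On 8 contigs the region was 587 to 1927 bp wide, and chr19_GL949746v1_alt had 2 separate regions of 583 and 226 bp, which were counted together at this position. In every library, 7 to 9 contigs had a peak there, with medians over contigs of 56.9, 67.1 and 59.98 in NG and 50.4, 48.2 and 62.3 in SMG. The widest, chr19_GL949750v2_alt 164502-166428, had 56.9, 66.3 and 58.7 in NG and 69.7, 52.9 and 73.1 in SMG. At the last position, the primary region chr19:54210617-54211235, at no protein-coding gene end, was in all 6 libraries at 77.3. The contigs there had peaks in 1 to 4 libraries at 3.59 to 37.2. Of the 7 primary regions in the stretch, 3 had no recurrent position on the contigs. They lay at NDUFA3, a respiratory chain gene, at chr19:54102567-54103216 (78.7, all 6 libraries), at CNOT3 and LENG1 (chr19:54154694-54155069, 20.2 in SMG 1 and SMG 2 only), and at RPS9, a ribosomal protein gene, at chr19:54200434-54201181 (39.7, 5 libraries). Which copy carried the stronger peak therefore differed from position to position within the same 9 contigs. These are copies in the reference, and which of them Jurkat cells carry was not determined here. The part of reads that fit several of these copies was not tested.

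**Figure D5:**
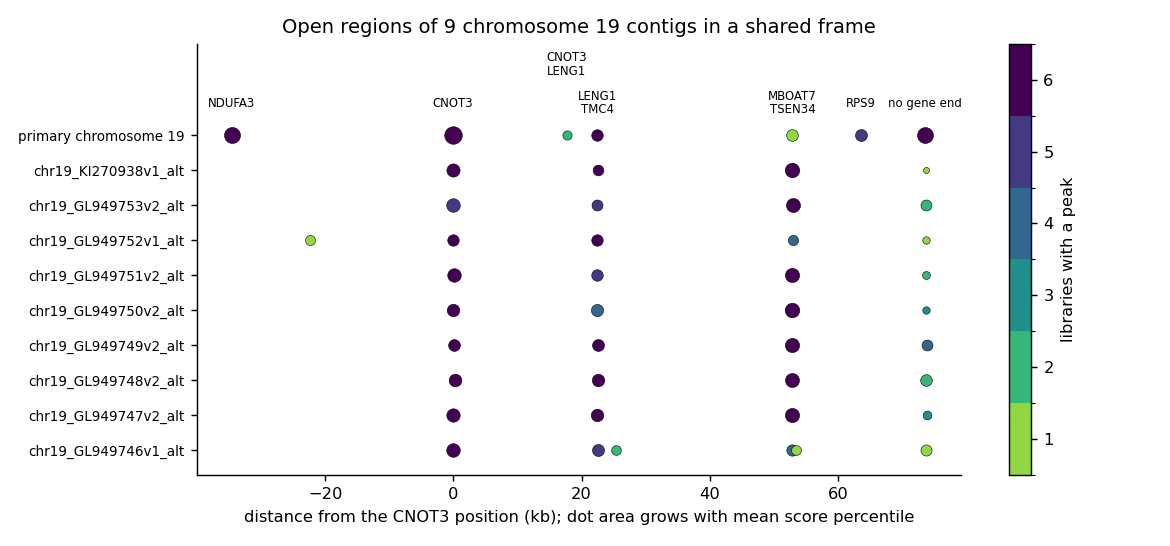
Open regions of 9 chromosome 19 contigs and of the primary chromosome (rows), by distance in kb from the CNOT3 position; dot area grows with the mean score percentile, colour gives the number of libraries, and labels name genes at a primary gene end, and contig regions outside the plotted stretch are not drawn. The MBOAT7 and TSEN34 position is dark on 7 of the contigs and light on the primary chromosome, where 1 library had a peak.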

How the data were processed

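By the layout and peak names of the files, the authors deposited 1 MACS2-style peak list per library on hg38, called in each library separately. Per the submitters' processing notes, FastQC, BWA, Bowtie, SAMtools and MACS2 were used. The sources used here do not give their versions, their settings, or the treatment of duplicates and of reads that fit several places. The score, as deposited, equals 10 times the −log10 q-value in 99.955 to 100% of each library's peaks. The deposited fold enrichment is a linear ratio of summit to local background, and the authors' peak caller wrote the deposited −log10 p-value and the −log10 q-value. Lists end at a q-value of 0.0474 to 0.0496. The files give no read counts, so depth is unknown beyond the background recovered from fold and p, whose lowest value was 1.17 to 1.77 fragments per base.

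Peaks were merged at 1 bp of overlap (Python 3.11.15, pandas 2.3.3). Scores were ranked within a library, and Benjamini-Hochberg adjustment ran over the 9 within-library tests and over 20 chromosomes. Summit pileup and background were solved for 99.979 to 99.989% of peaks within 0.001 of the deposited −log10 p-value, and the solver was tested on simulated data. Group means were compared by exact permutation over 20 assignments, and alternate against primary values by exact sign flips over 64. Of the 9 within-library tests, those of summit pileup, background, lowest background, top 10% share and share held by all libraries were added after the data were seen. Gene positions and promoters come from RefSeq (GRCh38.p14), which matched all but 1 of the 131 listed genes. Regions named are the 10 strongest in all 6 libraries, the strongest of each parent chromosome with at least 10 regions, up to 12 group-only regions per direction, and genes of the lists. Colinear pairs were chosen as examples after their values were seen. Members and lists were chosen with earlier results of these data known. Alternatives were a −log10 q-value of at least 5, equal peak numbers, 50% reciprocal overlap, no chromosome 6 contigs, a replicate block and leaving out each library. The contigs' own sequence and annotation were not used here. The result of 1 gene list is not reported here.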

Additional observations from a re-analysis of the deposited data

How the results depend on the processing

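The exact permutation tests of SMG against NG cannot go below p = 0.1, so no alternative could change their call. Their difference in median width, -1.0 bp, became 10.8 bp with equal peak numbers, 2.83 bp without chromosome 6 contigs, 15.3 bp without NG 2 and 5.67 bp without SMG 3 (-17.7 to 15.3 bp over libraries left out). Covered length turned to -0.813 kb without NG 1, and reached 72.4 kb without NG 2. The difference in alternate peaks was 13.3 without NG 1 and 124 without NG 2. The Jaccard difference, within minus between groups, was 0.0114 without NG 2 and 0.00170 without SMG 2, and -0.0127 at the lowest. At a −log10 q-value of at least 5 the fold percentile difference was -0.107 and the share held by all 6 libraries differed by -14.2 percentage points (exact permutation p = 0.03125, against 0.09375), 261 regions were in all 6, 5 were SMG-only and 1 was NG-only. With equal peak numbers 10 regions were SMG-only and 1 was NG-only. Shares of all merged regions are not given for either setting, so nothing is read from these group-only counts. Without chromosome 6 contigs the share held by all 6 libraries differed by -1.25 percentage points (exact permutation p = 0.46875). The cause of each change was not tested.

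Leaving out each library leaves 5, with which an exact sign-flip test cannot go below p = 0.0625, so the within-library calls could not pass. Their values ran from -6.74 to -4.92 (score percentile), -35.8 to -28.0 bp (width) and -7.80 to -7.70 points (top 10%). Against unlocalized or unplaced contigs and the mitochondrial genome, the score percentile difference ran from -9.95 to -7.04. The remaining values ran from -1.09 to -0.982 (background), 37.6 to 38.2 points (lowest background) and -4.60 to -4.00 (summit pileup). Chromosomes whose groups did not overlap numbered 1 to 3 with 5 libraries. With a library left out the group-only rule is looser, so counts can only stay or rise on the same regions. SMG-only regions numbered 14 to 31 and NG-only regions 1 to 13, and the shares of all merged regions are given with these counts above. The replicate block took same-numbered NG and SMG libraries as pairs. It left the difference in number of alternate peaks at 76.0 (exact permutation p = 0.5, smallest possible 0.25). Correlations of deviations between same-numbered libraries were 0.0149, 0.00675 and -0.0581. These showed no pairing by number, but the presence of peaks alone cannot decide whether such libraries were prepared together. The replicate block changed no call. Placing contigs with 20 bp gave 4 contigs in place of 10. Precision is limited by 3 libraries a group and by peaks near the calling threshold.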
